A study of Mus musculus with 12 samples.

Results

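The T cell receptor alpha chains described here are those whose V segment belongs to the TRAV8, TRAV5 or TRAV4 family. They were chosen by the deposited V gene name alone, among productive alpha (TRA) contigs of called cells in the libraries named CTX, CTX2, CSF1R, Combined, PBS2 and PBS1. A rearrangement, meaning 1 V gene name with 1 nucleotide sequence of the CDR3, was counted once per library. The families gave 1594 of 9383 distinct TRA rearrangements: 482 of TRAV8, 412 of TRAV5 and 700 of TRAV4. The other 7789 carried V segments of other families.

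The samples were CD45+ cells taken out of Balb/c mouse mammary tumours. The T cell receptor transcripts of single cells were enriched and sequenced. By the labels, CTX, CTX2, CSF1R and Combined were treated libraries and PBS1 was an untreated one. The labels describe the treatment as a course of 3 weeks with cyclophosphamide, an alkylating cytotoxic drug, and pexidartinib, which blocks the kinase of the CSF1 receptor. They do not say which library received which drug, and the library names are used here only as names. PBS2 carried conflicting labels: its receptor sample was labelled treated, while the expression sample it is paired with in the table was labelled untreated. CSF1R was tied to the treated group by a number that begins the titles of 2 treated expression samples. PBS1 was tied to the untreated group only by the number of an untreated expression sample, and no receptor sample was matched to it. The labels do not say how many mice each library came from, so p-values measure only the spread between these libraries.

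An alpha chain is made by joining a V segment (TRAV) to a J segment (TRAJ). The CDR3 is the loop over that join and runs from a cysteine of the V segment to the phenylalanine or tryptophan of the J segment. TRAJ numbers fall along the chromosome, so TRAJ58 lies nearest the V segments and TRAJ2 nearest the constant gene. A developing T cell can rearrange an allele again, using a V segment further upstream and a J segment further downstream. Mouse TRAV genes lie in duplicated blocks, and D or N in a name marks a copy in such a block.

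The names of 8 V genes were found, and all 8 had an entry in the RefSeq gene table of GRCm38.p6 on chromosome 14. The following sequences are the V-coded ends of the CDR3 of each gene, 5′ to 3′, read from the most frequent bases of the deposited CDR3. They are shown because they set the first residues of each family's loop, and the capitals mark the codon for position 4.

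TRAV8D-1: tgtgctactGATgc

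TRAV8D-2: tgtgctacaGAT

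TRAV8N-2: tgtgctactGAT

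TRAV5-1: tgctcagcaAGTa

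TRAV5N-4: tgtgctgcaAGTg

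TRAV4-2: tgtgctgctGAGgc

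TRAV4-3: tgtgctgctGAGgc

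TRAV4N-4: tgtgctgctGAGgc

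The position 4 codon was GAT, for aspartate, in the TRAV8 genes, AGT, for serine, in the TRAV5 genes and GAG, for glutamate, in the TRAV4 genes. Both TRAV8 and TRAV4 thus entered the loop with an acidic residue, and TRAV5 with an uncharged one. On mm10/GRCm38, TRAV5-1 spans chr14:52622566-52623082 and is the one of these genes with no other copy of its number in the RefSeq table. Further along lie TRAV8D-1 at chr14:52778510-52778995, TRAV8D-2 at chr14:53042428-53042891 and TRAV4N-4 at chr14:53302059-53302559. TRAV5N-4 follows at chr14:53312904-53313422, TRAV8N-2 at chr14:53345961-53346424, TRAV4-2 at chr14:53418388-53418873 and TRAV4-3 at chr14:53598911-53599410. Near-identical copies and a reference genome from another strain make the assignment to a single copy uncertain for the other 7 genes.

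The 6 libraries held 11518 called cells and 213458 UMIs, or molecules, and the libraries ranged between 6807 UMIs in PBS1 and 121305 in Combined. The median UMI count of a member contig was between 3 and 6 across libraries. Combined gave 1251 of the 1594 rearrangements and PBS1 gave 20. Of 8948 cell barcodes with a TRA, 26 occurred in more than 1 library, and none of these shared the TRA CDR3. The expression matrices, and with them other markers of T cells, were not used here.

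TRAV4 was the most used of the families and TRAV5 the least. TRAV8 made up 3.10% of the distinct TRA rearrangements in CTX, 4.25% in CTX2, 4.32% in CSF1R, 5.38% in Combined, 5.20% in PBS2 and 6.90% in PBS1. TRAV5 made up 3.10% in CTX, 3.28% in CTX2, 4.78% in CSF1R, 4.56% in Combined, 3.96% in PBS2 and 2.76% in PBS1. TRAV4 made up 4.53% in CTX, 5.21% in CTX2, 7.82% in CSF1R, 7.83% in Combined, 7.43% in PBS2 and 4.14% in PBS1. TRAV4 thus stood above TRAV5 in every library, while TRAV8 stood above TRAV4 in PBS1 alone. The mean shares were 4.86% ± 1.29 for TRAV8, 3.74% ± 0.823 for TRAV5 and 6.16% ± 1.72 for TRAV4 (SD, n = 6 libraries).

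**Figure D1:**
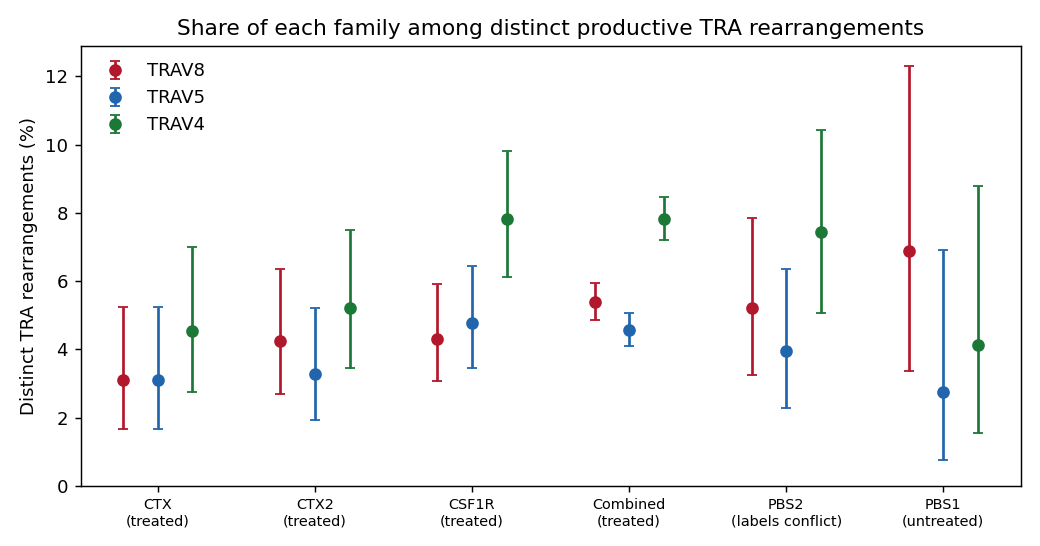
Share of distinct TRA rearrangements (percent, vertical axis) taken by TRAV8, TRAV5 and TRAV4 in each of the 6 libraries, treated libraries first; bars are exact 95% intervals for counting error. TRAV4 is the highest in 5 libraries, and the intervals of PBS1, with 145 rearrangements, are the widest.

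The families were compared inside each library by a two-sided exact sign-flip permutation test over the 6 libraries, for which the smallest possible p is 0.03125. There were 18 such comparisons, 3 pairs of families for 6 measures, and p-values were adjusted over all of them. With that smallest p, an adjusted p under 0.05 needs most of the 18 comparisons to reach 0.03125 together. The same holds for the tests over 13 families below, so a lack of calls says little by itself. None of the 18 passed an adjusted threshold of 0.05 (0% called), 3 had an unadjusted p under 0.05, and the lowest adjusted p of these exact tests was 0.188. One of the 3 was the share of TRAV5 minus that of TRAV4, which was -2.42 percentage points ± 0.947 and negative in 6 of 6 libraries (exact p = 0.03125, adjusted 0.188). The difference was -2.33 points within the 4 libraries with numbered titles and -2.60 points within CTX2 and Combined, whose sample titles begin with JR. TRAV8 minus TRAV4 was -1.30 points ± 2.17, negative in 5 of 6 libraries (exact p = 0.219, adjusted 0.562). TRAV8 minus TRAV5 was 1.12 points ± 1.61, positive in 4 of 6 (exact p = 0.125, adjusted 0.45). Without PBS1, these differences were -2.11 for TRAV8 minus TRAV4 and 0.512 for TRAV8 minus TRAV5, and without CSF1R the first was -0.862. In an alternative, each rearrangement was counted for every cell that held it, so a cell with several TRA entered for each of them. TRAV5 minus TRAV4 was then -1.71 points and negative in 5 of 6 libraries (exact p = 0.125).

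The 4 treated libraries were set against the 1 untreated library. TRAV8 averaged 4.26% ± 0.932 of rearrangements in the treated libraries (SD, n = 4) and had 6.90% in PBS1, where the exact 95% interval was 3.36 to 12.3%. PBS1 lay above each treated library, a difference of -2.63 points (exact permutation p = 0.2, adjusted 0.6). With each cell of a rearrangement counted, the difference was -0.625 points (exact permutation p = 0.8). The TRAV8 shares were then 5.42% in Combined and 4.63% in PBS1, so PBS1 was not above every treated library. TRAV5 averaged 3.93% ± 0.862 in the treated libraries and had 2.76% in PBS1 (exact permutation p = 0.4, adjusted 0.6). TRAV4 averaged 6.35% ± 1.72 in the treated libraries and had 4.14% in PBS1 (exact permutation p = 0.6, adjusted 0.6). With 4 libraries against 1, no p can fall below 0.2, so this design cannot pass 0.05. PBS2 was left out of this comparison because of its labels. The untreated label of PBS1 is that of an expression sample alone.

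In TRAV8 and TRAV5, the leading V gene carried most of the rearrangements. TRAV8D-1 had 296 of the 482 TRAV8 rearrangements, or 3.26% ± 1.21 of all TRA rearrangements (SD, n = 6), and ranged between 1.91% in CTX and 5.52% in PBS1. TRAV8D-2 had 122, at 1.13% ± 0.335. TRAV8N-2, under the 0.5% mean share set for describing a gene by itself, had 64 and a range of 0 to 0.753%. Its count of 0 among the 145 rearrangements of PBS1 allows a share of up to 2.07%. TRAV5N-4 had 315 of the 412 TRAV5 rearrangements at 2.95% ± 0.861, and TRAV5-1 had 97 at 0.791% ± 0.320. TRAV4 was spread most evenly: TRAV4N-4 had 303 rearrangements at 2.85% ± 0.931, TRAV4-3 had 260 at 2.31% ± 0.607 and TRAV4-2 had 137 at 1.004% ± 0.409.

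The families joined J segments over the whole locus, and each used 41 TRAJ genes. The mean TRAJ number of TRAV8 was 31.5 in CTX, 30.5 in CTX2, 33.1 in CSF1R, 37.1 in Combined, 43.8 in PBS2 and 41.5 in PBS1. The TRAV8 values of PBS2 and PBS1, from 21 and 10 rearrangements, lay above those of CTX, CTX2, CSF1R and Combined. That split was seen in the values first and was not tested. Because the labels of PBS2 conflict, it cannot be read as a split of untreated from treated libraries. TRAV5 had a mean TRAJ number of 31.8 in CTX, 38.0 in CTX2, 37.3 in CSF1R, 34.5 in Combined, 37.7 in PBS2 and 29.75 in PBS1. TRAV4 had 35.2 in CTX, 33.1 in CTX2, 40.5 in CSF1R, 37.8 in Combined, 32.1 in PBS2 and 35 in PBS1. For TRAV5 and TRAV4 the values of PBS2 and PBS1 overlapped those of the other libraries.

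Averaged over libraries, the mean TRAJ number was 36.2 ± 5.49 for TRAV8, 34.8 ± 3.45 for TRAV5, 35.6 ± 3.08 for TRAV4 and 35.2 ± 1.25 for all other TRA rearrangements (SD, n = 6). TRAV8 minus TRAV4 was 0.630 ± 7.10 TRAJ positions (exact permutation p = 0.875, adjusted 0.926). TRAV8 minus TRAV5 was 1.41 ± 6.99 positions (exact permutation p = 0.656, adjusted 0.773), and TRAV5 minus TRAV4 was -0.785 ± 4.73 (exact permutation p = 0.688, adjusted 0.773). The sign of each of these small differences turned when PBS1 was left out, to -0.544, -0.652 and 0.109 positions. Among 13 TRAV families each set against the rest, 3 (23.1%) had the same direction in every library, and none of these was TRAV8, TRAV5 or TRAV4. No adjusted p of that exact test passed 0.05 (0% called), with 3 of 13 families under 0.05 before adjustment.

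**Figure D2:**
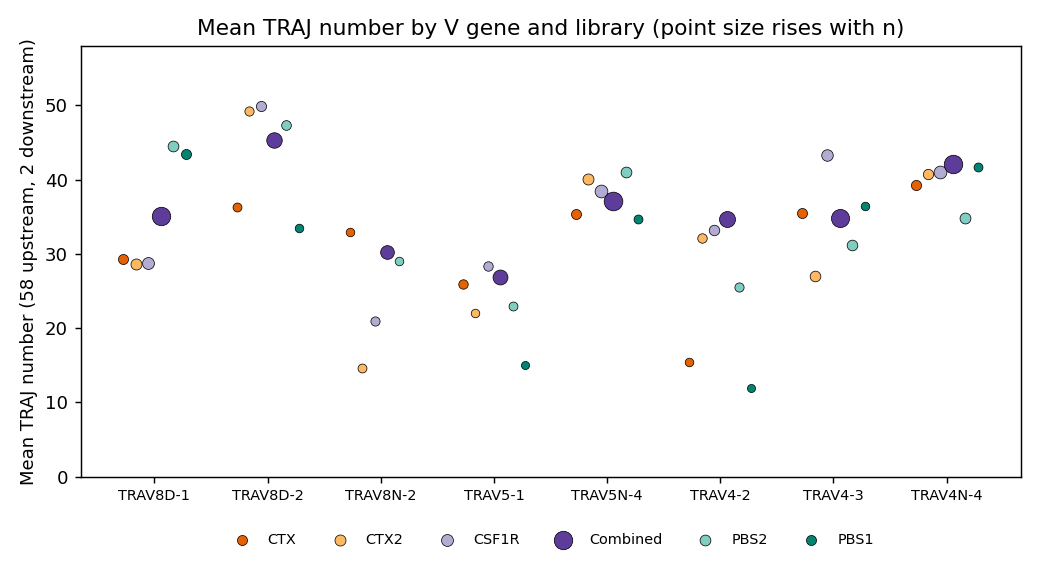
Mean TRAJ number of the distinct rearrangements (vertical axis, a higher number lies nearer the V segments) of each of the 8 V genes of the families in each library. Each colour is a library, and larger points stand for more rearrangements. TRAV8D-1 stands at 28.7 to 35.1 in CTX, CTX2, CSF1R and Combined, 44.5 in PBS2 and 43.5 in PBS1. TRAV8D-2 stands at 36.3 to 49.9 in CTX, CTX2, CSF1R and Combined, 47.3 in PBS2 and 33.5 in PBS1. The labels of PBS2 conflict.

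The even family means covered genes with unlike J segments. The genes were compared after their values were seen, so these differences are given with no test. TRAV5-1 had a pooled mean TRAJ number of 26.6 and TRAV5N-4 one of 37.5. TRAV5-1 was lower in all 6 libraries, by a mean difference of -14.3 ± 4.82 positions (SD), although 1 to 5 rearrangements stood behind it in every library other than Combined. In Combined it had 26.9 from 81 rearrangements, against 37.1 for TRAV5N-4 from 240. Only 2 of the 97 TRAV5-1 rearrangements (2.06%) used TRAJ58 to TRAJ46, against 108 of the 315 of TRAV5N-4 (34.3%). Among the 47 V genes with at least 50 rearrangements, TRAV5-1 ranked 2 from the lowest mean TRAJ number.

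TRAV4 and TRAV8 held similar contrasts between genes of the family. The pooled mean TRAJ number was 33.7 for TRAV4-2, 34.95 for TRAV4-3 and 41.5 for TRAV4N-4. TRAV4-2 was below TRAV4N-4 in 6 of 6 libraries (-14.4 ± 9.73 positions, pooled -7.78), and TRAV4-3 was below it in 5 of 6 (-5.21 ± 5.21). Outside Combined, TRAV4-2 had 1 to 11 rearrangements in a library. In Combined it had 34.7 from 114 rearrangements, against 42.1 for TRAV4N-4 from 231. TRAV8D-2 had 45.5, against 34.8 for TRAV8D-1, and was the lower of the pair in 1 of 6 libraries (8.64 ± 11.7 positions). TRAV8N-2 had 29.0 and was below TRAV8D-1 in 4 of the 5 libraries that held it (-7.69 ± 7.69). The split between libraries in TRAV8 was seen in TRAV8D-1, which held most of the TRAV8 rearrangements of PBS2 and PBS1. TRAV8D-1 had 29.4 in CTX, 28.7 in CTX2, 28.8 in CSF1R and 35.1 in Combined, against 44.5 in PBS2 and 43.5 in PBS1. These values came from 8, 15, 24, 228, 13 and 8 rearrangements in that order. They are largely the same data as the family values and not a second observation. The values of TRAV8D-2 did not separate: 36.3 in CTX, 49.25 in CTX2, 49.9 in CSF1R and 45.4 in Combined, against 47.3 in PBS2 and 33.5 in PBS1. They came from 3, 4, 9, 98, 6 and 2 rearrangements in that order. Nor did those of TRAV8N-2, at 33 in CTX, 14.7 in CTX2, 21 in CSF1R and 30.3 in Combined, against 29 in PBS2. These came from 2, 3, 4, 53 and 2 rearrangements. With so few outside Combined, these 2 genes cannot show whether the split was absent.

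**Figure D3:**
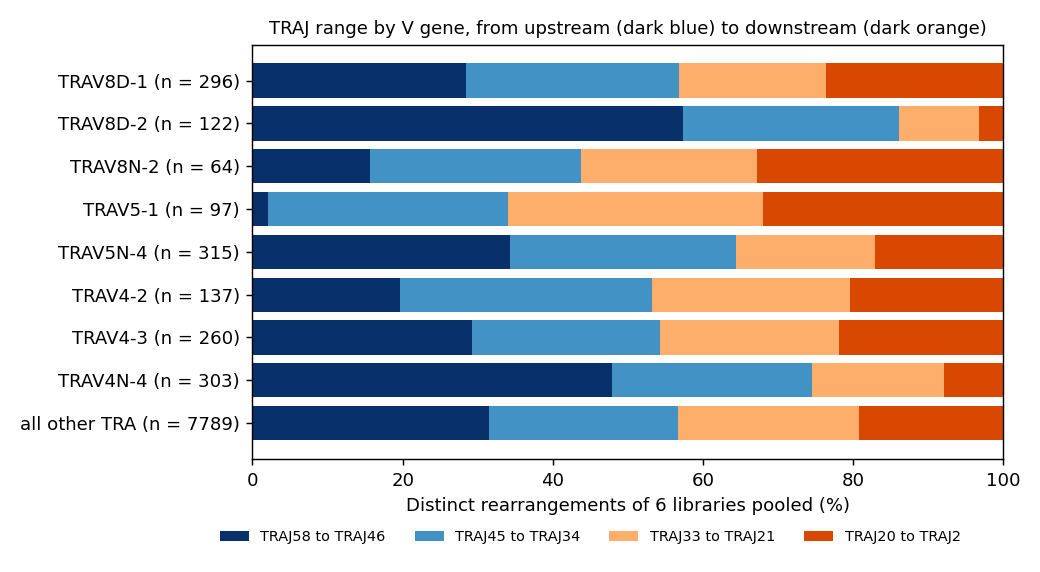
Pooled share of distinct rearrangements (percent) that use TRAJ58 to 46, TRAJ45 to 34, TRAJ33 to 21 or TRAJ20 to 2, for each V gene of the 3 families and for all other TRA rearrangements. TRAV8D-2 has 57.4% and TRAV4N-4 47.9% in the range nearest the V segments, and TRAV5-1 has 2.06%.

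By range, TRAJ58 to TRAJ46 took 33.5% ± 13.1 of TRAV8, 30.7% ± 10.9 of TRAV5, 33.4% ± 7.92 of TRAV4 and 30.6% ± 3.05 of other rearrangements (SD, n = 6). TRAJ45 to TRAJ34 took 27.6% of TRAV8, 24.2% of TRAV5 and 21.2% of TRAV4, and TRAJ33 to TRAJ21 took 18.3% of TRAV8, 23.7% of TRAV5 and 21.9% of TRAV4. TRAJ20 to TRAJ2 took 20.7% of TRAV8, 21.4% of TRAV5 and 23.5% of TRAV4. The TRAJ genes with the largest mean share were TRAJ52 (7.13% ± 7.43), TRAJ45 (5.14% ± 5.62) and TRAJ53 (5.10% ± 7.76) for TRAV8. For TRAV5 they were TRAJ49 (9.74% ± 8.08), TRAJ15 (6.53% ± 9.37) and TRAJ37 (6.02% ± 9.55). For TRAV4 they were TRAJ30 (6.55% ± 7.41), TRAJ18 (6.12% ± 5.47) and TRAJ57 (5.74% ± 6.58). Each SD was close to its mean or above it, so these orders do not separate the genes. Without PBS1 the shares were 4.55% for TRAJ52 and 2.12% for TRAJ53 in TRAV8, 2.84% for TRAJ15 and 2.23% for TRAJ37 in TRAV5, and 3.55% for TRAJ57 in TRAV4. Without PBS2 the share of TRAJ45 in TRAV8 was 3.31%.

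At CDR3 position 4, residues were counted by class, so an acidic residue need not be the V-coded one. TRAV8 had an acidic residue, aspartate or glutamate, in 50.1% ± 8.62 of rearrangements, TRAV5 in 0.260% ± 0.636 and TRAV4 in 52.4% ± 11.4 (SD, n = 6). Pooled over libraries, the acidic shares were 43.6% for TRAV8, 1.21% for TRAV5 and 58.4% for TRAV4. In Combined they were 42.0% for TRAV8 and 59.2% for TRAV4. The close means of TRAV8 and TRAV4 thus rest on equal weight for each library. The TRAV8 libraries ranged between 42.0% and 61.5% and the TRAV4 libraries between 33.3% and 61.2%. TRAV5 had none in 5 libraries and 1.56% in Combined, which makes 5 of 412 rearrangements. The TRAV5 range lay below both others with no overlap. The codons of the V-coded ends are those shown above, and the shares were given no test.

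The acidic residue was mostly aspartate in TRAV8, at 180 of 210, and mostly glutamate in TRAV4, at 356 of 409. Serine stood at position 4 in 69.9% ± 9.65 of TRAV5 rearrangements, against 4.04% ± 3.61 of TRAV8 and 1.47% ± 1.81 of TRAV4. Pooled over libraries, serine stood there in 63.1% of TRAV5, 4.77% of TRAV8 and 3.43% of TRAV4. A basic residue, arginine or lysine, stood there in 10.8% ± 9.06 of TRAV5, 1.82% ± 2.08 of TRAV8 and 5.71% ± 5.98 of TRAV4. The TRAV4 value was 3.52% without PBS1, where it came from 1 of 6 rearrangements, and the pooled shares were 13.1% for TRAV5, 3.32% for TRAV8 and 3.43% for TRAV4. Without Combined, the serine share of TRAV4 was 0.965%. In TRAV5, 43 of the 54 basic residues were arginine. By gene, the leading first 4 residues were CATD in 32.8% of TRAV8D-1, 47.5% of TRAV8D-2 and 26.6% of TRAV8N-2. They were CSAS in 64.9% of TRAV5-1 and CAAS in 61.6% of TRAV5N-4. CAAE opened 38.0% of TRAV4-2, 46.5% of TRAV4-3 and 60.4% of TRAV4N-4, which share 1 germline end.

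**Figure D4:**
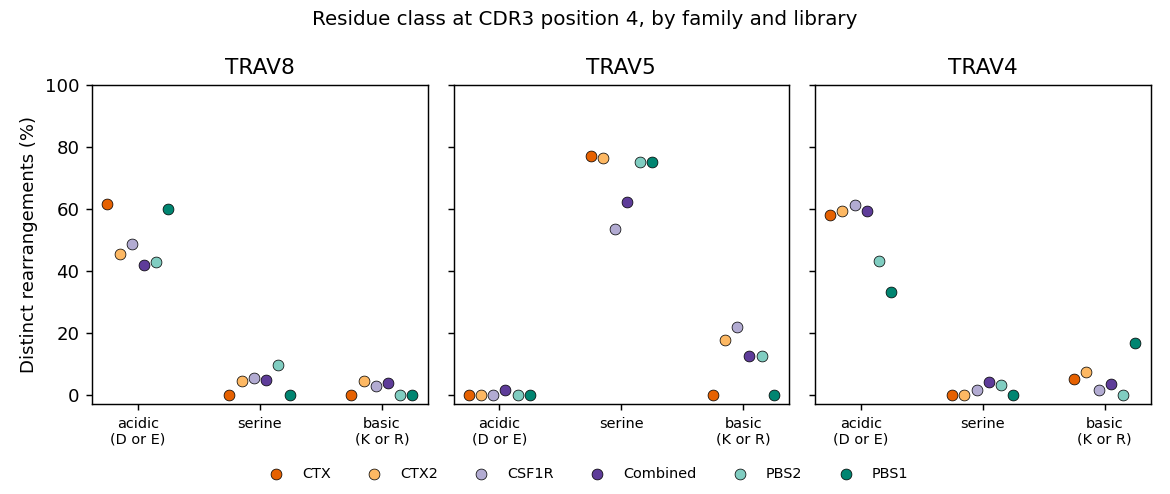
Share of distinct rearrangements (percent) with an acidic, a serine or a basic residue at CDR3 position 4 in TRAV8, TRAV5 and TRAV4, 1 point per library. The acidic shares of TRAV8 and TRAV4 lie between 33.3% and 61.5%, while those of TRAV5 lie between 0 and 1.56% and its serine shares between 53.7% and 76.9%.

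TRAV8 had the shortest CDR3 loops. Its mean length in amino acids was 12.7 in CTX, 12.5 in CTX2, 12.2 in CSF1R, 13.1 in Combined, 13.1 in PBS2 and 12.9 in PBS1. TRAV5 had 13.4 in CTX, 13.7 in CTX2, 13.3 in CSF1R, 13.5 in Combined, 13.5 in PBS2 and 13.25 in PBS1. TRAV4 had 13.3 in CTX, 13.3 in CTX2, 13.2 in CSF1R, 13.3 in Combined, 13.5 in PBS2 and 13.7 in PBS1. Every TRAV8 value lay below every TRAV5 and TRAV4 value.

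TRAV8 minus TRAV5 was -0.685 ± 0.387 amino acids and TRAV8 minus TRAV4 was -0.626 ± 0.291, each negative in 6 of 6 libraries (exact permutation p = 0.03125 for each, adjusted 0.188). In the 4 numbered libraries these differences were -0.624 and -0.665, and in the JR libraries -0.806 and -0.549. The gap of TRAV8 to TRAV4 was smallest in Combined, at -0.220 amino acids from 379 and 551 rearrangements, and the largest in CSF1R, at -0.951. With medians in place of means the exact permutation p of both differences was 0.25. With each cell of a rearrangement counted, TRAV8 minus TRAV5 was -0.664, negative in 5 of 6 libraries (exact permutation p = 0.125). TRAV5 minus TRAV4 was 0.0584 ± 0.260 (exact permutation p = 0.594, adjusted 0.773).

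Against all other TRA rearrangements of the same library, with a mean length of 13.8 ± 0.0933 amino acids, TRAV8 differed by -0.967 ± 0.351, negative in 6 of 6 libraries (exact permutation p = 0.03125, adjusted over 13 families 0.0677). This was the lowest of the 13 families. TRAV5 differed by -0.245 ± 0.208, negative in 5 of 6 (exact permutation p = 0.0625, adjusted 0.116), and TRAV4 by -0.314 ± 0.145, negative in 6 of 6 (exact permutation p = 0.03125, adjusted 0.0677). The same direction in every library was found in 6 of the 13 families (46.2%), all 6 with an unadjusted p under 0.05, and none passed after adjustment (0% called).

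**Figure D5:**
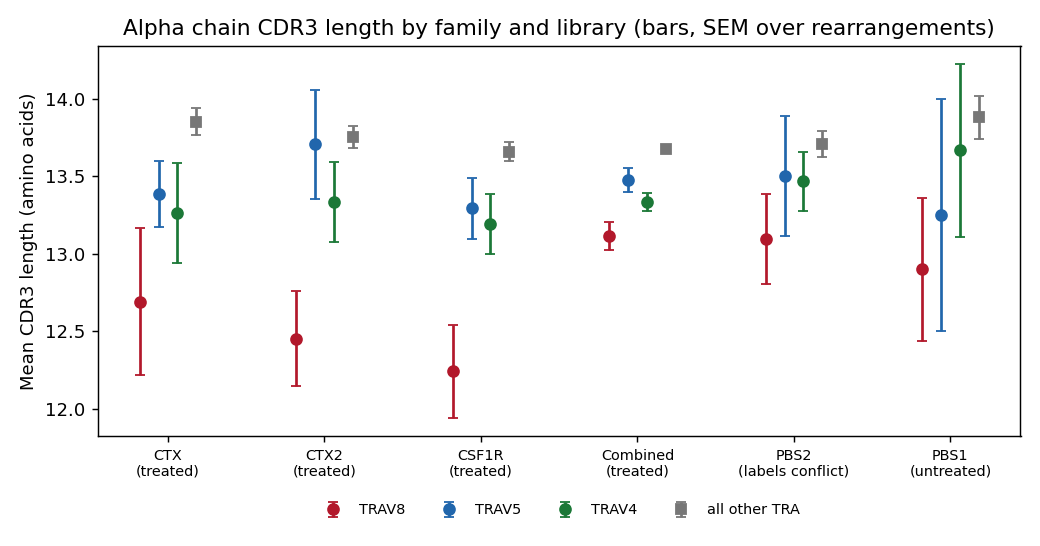
Mean CDR3 length (amino acids, vertical axis) of TRAV8, TRAV5, TRAV4 and all other TRA rearrangements in each library; bars are the standard error over rearrangements of 1 library. TRAV8 lies at 12.2 to 13.1 and is the shortest of the 4 sets in every library.

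The CDR3 bases were split into those matching the V-coded end, those matching the J-coded end and those in the middle matching neither. The V-coded part of TRAV8 held 9.59 ± 0.427 bases, against 11.3 ± 0.313 in TRAV5, 10.7 ± 0.50 in TRAV4 and 11.2 ± 0.0897 in other rearrangements (SD, n = 6). The middle held 2.68 ± 0.547 bases in TRAV8, 2.44 ± 0.643 in TRAV5, 2.496 ± 0.493 in TRAV4 and 3.61 ± 0.273 in the others. The J-coded part held 26.0 ± 0.953 bases in TRAV8, 26.6 ± 0.546 in TRAV5, 26.9 ± 0.811 in TRAV4 and 26.4 ± 0.262 in the others. TRAV8 was thus lowest in the V-coded part, and by their means all 3 families held fewer middle bases than the others. These parts were given no test. Middle bases were absent from 20.1% ± 7.66 of TRAV8, 19.1% ± 15.7 of TRAV5, 28.7% ± 6.22 of TRAV4 and 18.2% ± 2.06 of other rearrangements. A chance match counts as template in this split, and a second germline end under 1 gene name counts as middle. The V-coded ends read here were also unequal. They held 12 bases for TRAV8D-2 and TRAV8N-2, 13 for the TRAV5 genes and 14 for TRAV8D-1 and the TRAV4 genes. Bases past a shorter end were not counted as V-coded. Pooled, TRAV8D-1 held 9.41 V-coded bases, against 10.5 in TRAV4-2, 10.5 in TRAV4-3 and 11.5 in TRAV4N-4.

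Of the 8 genes, the shortest pooled means belonged to TRAV8N-2, at 12.7 amino acids, and TRAV8D-1, at 12.8. TRAV8D-2 had 13.5, close to TRAV5N-4 at 13.5 and TRAV4N-4 at 13.6. TRAV4-2 and TRAV4-3 had 13.1 each and TRAV5-1 had 13.4.

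A beta chain was found in a cell of 1511 of the 1594 rearrangements. The families used between 17 and 19 TRBV genes, and TRBV13-2, one of the genes of the mouse Vb8 group, was the most frequent partner of each. It accompanied 15.1% ± 3.19 of TRAV8, 17.5% ± 11.3 of TRAV5 and 14.2% ± 3.71 of TRAV4 rearrangements (SD, n = 6), beside 15.0% ± 1.68 of other rearrangements. The next partners were TRBV19 (13.4% ± 11.7) and TRBV13-1 (9.64% ± 5.97) for TRAV8. They were TRBV5 (11.7% ± 11.4) and TRBV20 (10.4% ± 12.4) for TRAV5, and TRBV19 (12.3% ± 7.27) and TRBV13-3 (9.18% ± 10.5) for TRAV4. The TRAV5 order rested on PBS1, where 3 rearrangements had a beta chain: without it the shares were 7.34% for TRBV5 and 5.79% for TRBV20. Pooled over libraries, TRBV13-1 (42 rearrangements), TRBV31 (41) and TRBV19 (38) came before TRBV5 (36) and TRBV20 (34) in TRAV5. In TRAV4 the share of TRBV13-3 was 5.13% without CTX.

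The TRBV13 genes together accompanied 32.2% ± 8.20 of TRAV8, 26.5% ± 13.8 of TRAV5, 28.7% ± 12.4 of TRAV4 and 34.2% ± 4.04 of other rearrangements. The second J cluster of the beta locus, TRBJ2, was joined in the partner of 70.6% ± 13.03 of TRAV8, 60.7% ± 14.3 of TRAV5, 61.3% ± 10.5 of TRAV4 and 63.4% ± 3.05 of other rearrangements. For TRBV13, TRAV8 minus TRAV4 was 3.53 points ± 10.97, TRAV8 minus TRAV5 was 5.74 ± 9.71 and TRAV5 minus TRAV4 was -2.22 ± 9.62 (exact permutation p of 0.594, 0.219 and 0.688). For TRBJ2 the same differences were 9.33 points ± 17.8, 9.91 ± 24.6 and -0.577 ± 13.4 (exact permutation p of 0.25, 0.406 and 0.969). Without PBS1, TRAV8 minus TRAV5 was 2.89 points for TRBV13 and 2.55 for TRBJ2, and TRAV8 minus TRAV4 was 5.19 for TRBJ2. Without PBS2, the TRBJ2 differences were 17.4 points for TRAV8 minus TRAV5 and 15.5 for TRAV8 minus TRAV4. No pair passed, and with spreads of this size these partner shares cannot be told apart at this depth. Among the 13 families set against the rest, none had the same direction in every library for TRBV13 (0%) or for TRBJ2 (0%), and none had an exact p under 0.05.

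Most rearrangements were seen in a single cell. Of the 1594, 1545 were found in 1 cell, 49 in at least 2 and 1 in at least 10. The share found in at least 2 cells was 2.93% ± 2.92 for TRAV8, 7.72% ± 9.68 for TRAV5, 9.89% ± 7.73 for TRAV4 and 6.83% ± 4.80 for other rearrangements (SD, n = 6). The TRAV5 value was 4.27% without PBS1, where it came from 1 of 4 rearrangements. Pooled over libraries, the shares were 2.70% for TRAV8, 2.43% for TRAV5, 3.71% for TRAV4 and 3.39% for the others, so the order of TRAV8 and TRAV5 depended on the weight given to each library. TRAV8 had none in PBS2 or PBS1, which allows up to 14.3% of 21 and 30.0% of 10 rearrangements. TRAV5 had none in CSF1R or PBS2, which allows up to 7.32% and 18.75%. TRAV8 minus TRAV4 was -6.96 points ± 7.42, negative in 5 of 6 libraries (exact permutation p = 0.0938, adjusted 0.422). TRAV8 minus TRAV5 was -4.79 ± 10.5 and TRAV5 minus TRAV4 was -2.17 ± 8.27 (exact permutation p of 0.5 and 0.531). Without PBS1 they were -0.749 for TRAV8 minus TRAV5 and -4.27 for TRAV5 minus TRAV4. Of the 13 families set against the rest, 1 (7.69%) had the same direction in every library for this measure, and it was none of the 3.

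The 3 rearrangements with the most cells of each family are given below by their deposited CDR3 nucleotide sequence, since they show what was joined. Capitals mark the middle bases that match neither the V-coded nor the J-coded end.

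TRAV8D-1/TRAJ49, CTX2: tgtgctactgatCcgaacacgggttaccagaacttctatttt

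TRAV8D-1/TRAJ12, CTX: tgtgcCCctggaggctataaagtggtcttt

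TRAV8D-1/TRAJ18, Combined: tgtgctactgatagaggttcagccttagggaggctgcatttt

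TRAV5N-4/TRAJ49, PBS1: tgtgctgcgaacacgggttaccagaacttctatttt

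TRAV5N-4/TRAJ45, CTX: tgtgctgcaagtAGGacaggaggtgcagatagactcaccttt

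TRAV5N-4/TRAJ40, CTX2: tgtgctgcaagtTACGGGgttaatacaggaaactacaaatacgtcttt

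TRAV4-2/TRAJ34, CTX2: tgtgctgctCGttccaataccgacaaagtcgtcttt

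TRAV4N-4/TRAJ49, Combined: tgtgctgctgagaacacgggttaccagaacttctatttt

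TRAV4-3/TRAJ30, CTX: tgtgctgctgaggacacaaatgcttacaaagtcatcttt

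The TRAV8D-1 to TRAJ49 join had 1 middle base and was in 12 cells of CTX2, or 1.15% of the 1044 cells of that library with a TRA. Of these, 10 cells carried the same TRBV13-1 beta chain. The TRAV8D-1 to TRAJ12 join, with a loop of 10 amino acids, was in 9 cells of CTX (1.79% of 504 cells), and 7 of them shared a TRBV4 beta chain. The TRAV5N-4 to TRAJ49 join had no middle base and was in 8 cells of PBS1, or 4.26% of 188 cells, with a shared TRBV20 beta chain in 7. It made up 8 of the 11 TRAV5 cells of that library. The TRAV5N-4 to TRAJ45 join was in 4 cells of CTX with 1 TRBV4 beta chain in all 4, and the TRAV5N-4 to TRAJ40 join was in 2 cells of CTX2. The TRAV4 joins were smaller, with 3 cells in CTX2, 3 in Combined and 2 in CTX. The 3 cells of TRAV4-2 to TRAJ34 shared 1 TRBV13-2 beta chain, and the largest number of Combined TRAV4N-4 to TRAJ49 cells with 1 beta chain was 1.

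Some alpha rearrangements recurred between libraries. The same nucleotide sequence was found in at least 2 libraries for 10 of 470 TRAV8 sequences (2.13%), 6 of 406 TRAV5 sequences (1.48%), 10 of 690 TRAV4 sequences (1.45%) and 100 of 7675 others (1.30%). At the amino acid level it was 20 of 434 for TRAV8, 13 of 387 for TRAV5 and 26 of 612 for TRAV4. Shared sequences held few middle bases: a mean of 0.1 against 3.23 in the unshared ones of TRAV8, 1.33 against 2.63 in TRAV5, and 0.3 against 2.59 in TRAV4. The other families had 0.88 against 3.56. Of 52 shared alpha CDR3 with a beta chain in at least 2 libraries, none had the same beta CDR3 in 2 libraries, and a count of 0 of 52 allows up to 5.77%.

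The shared CDR3 found in the most libraries are printed here for each family in their nucleotide forms, with capitals again marking the middle bases, because different bases gave the same loop.

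TRAV8D-1/TRAJ18 in CTX, CSF1R and Combined: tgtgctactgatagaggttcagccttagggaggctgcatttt

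TRAV8D-1/TRAJ18 in CTX2: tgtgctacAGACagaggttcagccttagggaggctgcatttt

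TRAV8D-1/TRAJ42 in CSF1R and Combined: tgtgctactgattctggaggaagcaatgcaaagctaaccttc

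TRAV8D-1/TRAJ42 in PBS2: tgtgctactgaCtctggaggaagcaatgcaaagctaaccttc

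TRAV5N-4/TRAJ45 in CTX and Combined: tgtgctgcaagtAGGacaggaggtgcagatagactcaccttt

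TRAV5N-4/TRAJ45 in PBS2: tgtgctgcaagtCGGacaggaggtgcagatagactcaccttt

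TRAV4-3/TRAJ30 in CTX and CTX2: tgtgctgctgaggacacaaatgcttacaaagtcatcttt

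The TRAV8D-1 to TRAJ18 loop was in 7 cells of 4 libraries and came from 2 nucleotide forms. Its leading beta chain differed between the 4 libraries, and in Combined that beta chain was in 1 of 3 cells. The TRAV8D-1 to TRAJ42 loop was in 4 cells of 3 libraries. Its leading beta chain in each library used TRBV4, with 3 different CDR3. A shorter TRAV8D-1 to TRAJ44 loop was in 3 libraries and ended in a leucine where the J motif has phenylalanine, as deposited. The TRAV5N-4 to TRAJ45 loop was in 6 cells of 3 libraries, from 2 nucleotide forms and with 3 different beta chains. The TRAV4 loop joined to TRAJ30 was in 4 cells of 3 libraries from 1 nucleotide sequence, assigned to TRAV4-3 in CTX and CTX2 and to TRAV4N-4 in Combined. The remaining loops among the most widely shared were in 2 or 3 libraries.

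Nonproductive contigs carry a join out of frame or with a stop, and each family had a lower pooled share of them than of productive ones. TRAV8 made up 15 of 543 distinct nonproductive TRA rearrangements (2.76%), against 5.14% of the productive ones. TRAV5 made up 9 of 543 (1.66%), against 4.39%, and TRAV4 made up 24 (4.42%), against 7.46%. These shares were pooled over libraries and carry no test. A second productive TRA was in the cell of 30.7% of TRAV8 contigs, 26.2% of TRAV5 contigs, 31.25% of TRAV4 contigs and 30.5% of other contigs.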

How the data were processed

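Each row of the table deposited by the authors is 1 assembled contig, with raw UMI counts, raw read counts and a contig length in bases. Per the submitters' processing notes, Cell Ranger 3.0.2 and the builds mm10 and GRCm38 were used. Libraries were made with 5′ droplet and mouse T cell V(D)J kits, per the labels' protocols. The contig, cell and gene calls were taken as deposited. Of 11 library names, 6 were tied to a sample or group by a number in its title, and 5 matched no label and were not used.

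A rearrangement was 1 V gene name with 1 CDR3 nucleotide sequence, taken once in each library whatever its UMIs or cells. A library entered a comparison when each side had at least 3 rearrangements. The beta partner was the productive TRB with the most UMIs in the cell, and the most frequent over a rearrangement's cells. V-coded and J-coded ends were read from the most frequent bases per gene, kept while at least 50% of at least 10 sequences shared the base. No doublet caller was run; an alternative dropped every cell holding at least 3 TRA or 2 TRB.

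Families were compared by two-sided exact sign-flip permutation over libraries, with Benjamini-Hochberg adjustment over all 18 pairs or over 13 families within a measure. Treated and untreated libraries were compared by an exact permutation test. The 95% intervals of shares are exact (Clopper-Pearson), and for a count of 0 the limit is 3 counts of the total. These cover counting error only. The members, lists and tests were chosen with earlier results of these data known. V genes with a mean share of at least 0.5%, the 3 most used TRAJ and TRBV genes, the 3 rearrangements with the most cells and up to 5 widely shared CDR3 of each family were named by rule. The test was checked on simulated data. The tools were pandas 2.3.3, scipy 1.17.1 and numpy 2.4.6 under Python 3.11.15, with matplotlib 3.10.9 for plots.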

Additional observations from a re-analysis of the deposited data

Results flagged for a closer look

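In PBS1, the share of TRAV5 rearrangements with a TRBV13 partner was 0%, from 0 of 3 rearrangements with a beta chain, and lay further below the other 5 libraries than their spread allows by Dixon's test. A count of 0 of 3 allows any share up to 100%. The share of TRAV5 rearrangements with a TRBJ2 partner was 33.3% in the same library, from the same 3 rearrangements, and was also far below the others. Of 18 sets of 6 libraries examined in this way, 2 were singled out, and chance singles out about 1 in 20.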

How the results depend on the processing

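Of 22 settings, 3 changed no value: no name of the families held DV, no barcode had the same TRA CDR3 in 2 libraries, and a minimum of 1 rearrangement on each side let in no library that a minimum of 3 had left out. In the other 19, over 53 results, 720 of 775 alternatives kept their direction and side of the threshold or, for values with no test, stayed within the spread between libraries, 53 changed sign and 2 moved. No adjusted p passed 0.05 in any. That outcome was close to fixed, since the sign-flip p over 6 libraries cannot fall below 0.03125. With 1 library left out, the smallest possible sign-flip p is 0.0625, so no such alternative could pass. Keeping the side of the threshold therefore tells little, and the direction is what these counts show. The shorter CDR3 of TRAV8 and the lower share of TRAV5 than of TRAV4 kept the sign of their mean in every alternative. TRAV8 minus TRAV4 ranged between -0.712 and -0.326 amino acids and TRAV8 minus TRAV5 between -0.833 and -0.462. TRAV5 minus TRAV4 ranged between -2.91 and -1.71 percentage points. With each cell of a rearrangement counted, however, 5 of 6 libraries, not 6, had the direction of TRAV5 minus TRAV4 in share. The same held for TRAV8 minus TRAV5 in length (exact permutation p = 0.125 for each). Between treated and untreated libraries, no shared replicate numbers are given by the labels. No paired analysis was possible because of this, and the comparisons of families inside each library are not affected.

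Differences that changed sign are given next, among them TRBV13 for TRAV8 minus TRAV5 (5.74 points over libraries) and for TRAV5 minus others (-7.16). Their cause was not tested. With the TRA of most UMIs per cell, TRAV5 minus TRAV4 was -0.00677 amino acids and 1.05 points for TRBV13. With at least 10 rearrangements on each side, TRAJ number was -0.544 for TRAV8 minus TRAV4, -0.652 for TRAV8 minus TRAV5, 0.109 for TRAV5 minus TRAV4 and 0.0992 for TRAV5 minus others. In that setting TRAV5 minus TRAV4 was 0.674 points for TRBV13 and 2.64 for TRBJ2, and TRAV5 minus others was 1.75 for TRBJ2 and -2.17 for 2 or more cells. By amino acid sequence, TRBJ2 was 0.505 for TRAV5 minus TRAV4.

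With each cell of a rearrangement counted, TRAJ number was -1.44 for TRAV8 minus TRAV5 and 1.62 for TRAV5 minus TRAV4. Against others it was -0.323 for TRAV4, 1.34 for TRAV5 and -0.144 for TRAV8. The share in 2 or more cells was then 2.64 for TRAV5 minus TRAV4, -9.90 for TRAV4 minus others and -7.00 for TRAV5 minus others, and treated minus untreated was -1.73 for TRAV5. With libraries pooled, TRAV8 minus TRAV4 was -0.846 for TRAJ number and -2.47 for TRBV13, and TRAV8 minus TRAV5 was -5.02 for TRBV13 and 0.270 for 2 or more cells. TRAV5 minus TRAV4 was then 2.56 for TRBV13 and 3.61 for TRBJ2, and TRAV5 minus others was 0.404, 1.17 and -0.950 for TRBV13, TRBJ2 and 2 or more cells. For the share with TRAJ34 or higher, TRAV5 minus TRAV4 was 0.293 and TRAV4 minus others -1.28. Without cells with 3 or more TRA or 2 or more TRB, TRAJ number was -0.0992 for TRAV8 minus TRAV4, TRBJ2 was 2.08 for TRAV5 minus TRAV4 and 2 or more cells was -0.362 for TRAV5 minus others. The moved values, with libraries pooled, were the acidic share of TRAV5 at 1.21% and the serine share of TRAV4 at 3.43%.

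Leaving out each library in turn, TRAJ number ranged between -1.58 and 2.24 for TRAV8 minus TRAV4, -0.652 and 3.20 for TRAV8 minus TRAV5, -2.05 and 0.109 for TRAV5 minus TRAV4, -0.557 and 2.23 for TRAV8 minus others, -1.17 and 0.196 for TRAV5 minus others, and -0.709 and 1.16 for TRAV4 minus others. TRAV5 minus TRAV4 ranged between -0.00447 and 0.153 for CDR3 length, -4.94 and 0.674 for TRBV13, -4.44 and 2.64 for TRBJ2 and -4.27 and 0.0690 for 2 or more cells. TRAV8 minus TRAV4 ranged between -0.459 and 5.39 for TRBV13. Against others, TRBJ2 ranged between -4.77 and 0.153 for TRAV4 and -5.57 and 1.75 for TRAV5, and 2 or more cells between -2.17 and 2.06 for TRAV5. The alternative without CDR3 of unusual end, and the descriptive means without each library, were chosen after seeing the data. Outside Combined, a family had 4 to 67 rearrangements in a library, which limits every mean.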
